A study of Homo sapiens with 16 samples.

Results

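Keratins, keratin-associated proteins and small proline-rich proteins were followed in Ewing sarcoma cells given SP-2509, a compound that blocks LSD1, an enzyme that takes methyl groups off histones. The genes were chosen by their symbol and selected on their summed raw count. Of 39249 genes in the count tables, 84 carried a symbol of the keratin (KRT), keratin-associated protein (KRTAP) or small proline-rich protein (SPRR) families, and 21 of these had at least 50 counts over all 16 libraries. The 21 genes were 12 keratins, 7 keratin-associated proteins, 1 small proline-rich protein (SPRR2D) and 1 antisense RNA, KRTAP5-AS1. The count total took in treated and untreated libraries alike, so a gene expressed in 1 group only can have entered through that group.

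Poly(A) RNA came from A673, a human Ewing sarcoma line, and from 3 monoclonal derivatives of it with a knockout of MRPL45, CYC1 or UQCRFS1. MRPL45 is part of the mitochondrial ribosome, while CYC1 and UQCRFS1 belong to complex III of the respiratory chain. Each line was given SP-2509 at 500 nM or DMSO at 0.1% for 48 h, with 2 libraries in each of the 8 groups. Each knockout is 1 clone, so the effect of the lost gene and the history of the clone cannot be told apart. Whether the replicates are separate cultures is not stated, and the p-values reflect only how far these libraries spread, which may be technical. In these bulk samples, fewer cells that express a gene and less RNA per cell cannot be told apart.

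Keratins form the intermediate filaments of epithelial cells. A type I (acidic) keratin pairs with a type II (basic) keratin, and the pair in use marks the kind of epithelium: KRT8 with KRT18 in simple epithelia, KRT10 in the upper epidermis, and a separate set of hair keratins in the hair shaft. Keratin-associated proteins are small proteins, many of them rich in cysteine, that cross-link the hair keratins. SPRR proteins are substrates of transglutaminases and become part of the cornified envelope, the protein shell of the outermost epidermal cells.

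The libraries held between 24873597 and 56171036 counts. Values are CPM, counts scaled to a common library size with TMM factors, and intervals and count floors below cover counting error only. Transcripts of CYC1 stood at 71.1 to 82.2 CPM in the 4 libraries of its own knockout line, against 258 to 308 CPM in the other 12. UQCRFS1 stood at 58.6 to 88.2 CPM in its own knockout line, against 88.6 to 119 CPM in the other 12. Transcripts of MRPL45 were not analysed here, so the label of that knockout line has no such check, unlike the other two. All 10 Ewing sarcoma markers, among them NKX2-2, NR0B1 and CD99, were detected in every group, with summed levels of 2790 to 4190 CPM over the 16 libraries.

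Of the 21 genes, 19 passed the filter on low counts. KRT12, the keratin of the cornea (82 counts in all), and KRT32, a hair keratin (76 counts), did not. The genes just inside the count minimum were KRTAP4-12 (52 counts), KRT81 (71) and KRT32, and those just outside were KRTAP12-2 (42), KRT27 (41) and KRTAP12-1 (38). The 63 genes of these families under the minimum had 2 to 42 counts each and reached at most 0.286 CPM in any library. They include KRT5, KRT14 and KRT19, the usual keratins of basal and simple epithelium, with 11, 11 and 22 counts.

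Per kilobase of exon, the order of the levels differed between treated and untreated A673. In A673 with SP-2509 the highest were KRTAP4-9 at 31.1 CPM per kb, KRT18 at 24.7, KRTAP4-7 at 17.3, SPRR2D at 14.2, KRT10 at 10.9 and KRTAP4-8 at 8.89. In A673 with DMSO the order was KRT18 at 25.7 CPM per kb, KRT10 at 9.21, KRT8 at 1.19 and KRT17 at 1.03, and KRTAP4-9 stood at 0.376. Genes of the hair shaft and the cornified envelope thus stood among the simple and epidermal keratins after 48 h of SP-2509, and below KRT17 without it.

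**Figure D1:**
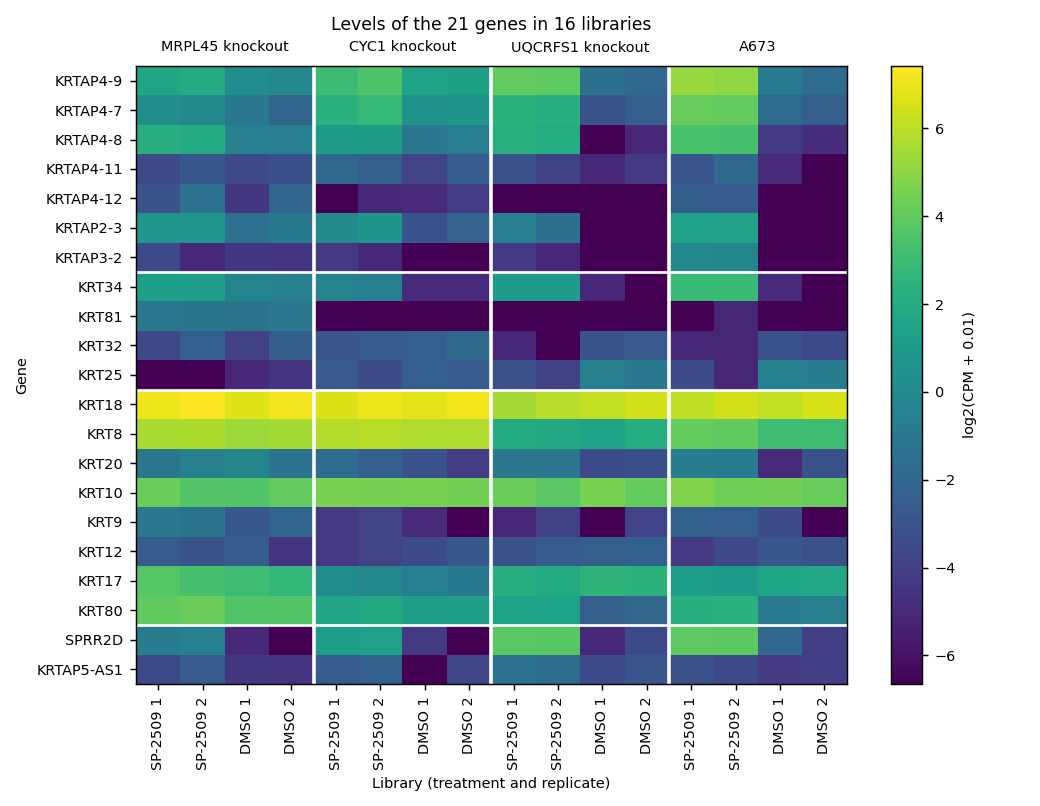
Levels of the 21 genes as log2(CPM + 0.01), 1 row per gene and 1 column per library, with the SP-2509 libraries left of the DMSO libraries in each line. White lines separate keratin-associated proteins, keratins of hair and root sheath, other keratins, and SPRR2D with KRTAP5-AS1. KRTAP4-9, SPRR2D and KRT34 are bright in the SP-2509 columns of A673 and of the UQCRFS1 knockout line, and KRT18 is bright in all 16 columns.

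What SP-2509 changed in each line was the first question of the design. Each gene was tested with edgeR's quasi-likelihood test in 1 fit of all 16 libraries and called at a Benjamini-Hochberg adjusted p under 0.05 over the 21633 genes tested. In the MRPL45 knockout line 8 of the 19 genes were called higher and 0 lower, where 10.4% and 8.09% of all tested genes were called higher and lower. In the CYC1 knockout line 10 were called higher and 0 lower, against 18.7% and 14.7% of all genes. At an unadjusted p under 0.05, 0 were lower in either line, and DESeq2 called 0 lower in both. In the UQCRFS1 knockout line 9 were called higher and 2 lower, against 29.6% and 25.1% of all genes. In A673 12 were called higher and 2 lower, against 31.6% and 26.4% of all genes.

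The median log2 fold change of the 19 genes was 0.64, 1.65 and 1.76 in the MRPL45, CYC1 and UQCRFS1 knockout lines and 3.27 in A673, where the median of all tested genes lay between -0.03 and 0.02. These counts and medians describe the genes and are no test of the set, since a gene that reached the count minimum through its treated libraries had to differ. With upper-quartile scaling the median of all genes moved to -0.21 in A673 and -0.14 in the UQCRFS1 knockout line, and the share of higher calls among all called genes moved to 41.6% and 43.6%, against 54.4% and 54.1%. The calls among the 19 genes were 12 higher and 2 lower in A673 and 9 higher and 2 lower in the UQCRFS1 knockout line under that scaling too.

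**Figure D2:**
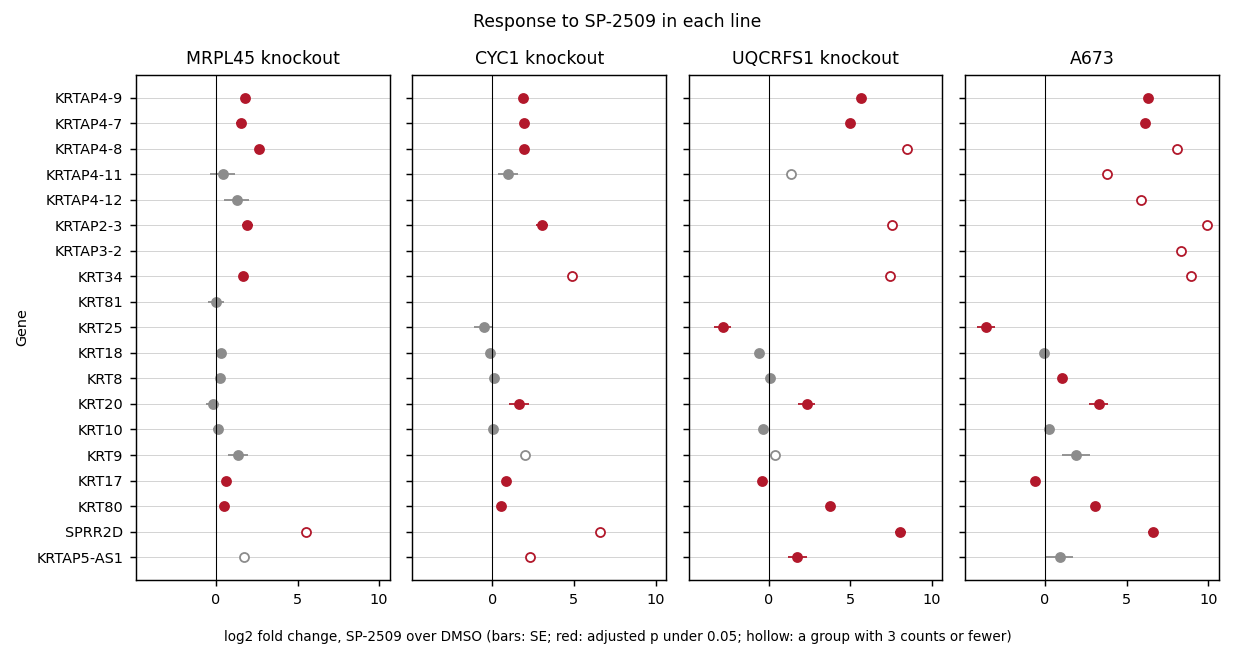
Log2 fold change of SP-2509 over DMSO for the 19 tested genes in the 4 lines, with bars for the standard error and red for adjusted p under 0.05. Hollow points have a group with 3 counts or fewer, where the fitted value depends on the prior count, and a gene with 3 counts or fewer in both groups has no point. KRTAP4-9, KRTAP4-7, KRTAP4-8, KRTAP2-3 and KRT34 lie farther right in A673 and the UQCRFS1 knockout line than in the other two.

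Of the 12 genes called higher in A673, 7 were keratin-associated proteins. The 3 most abundant, KRTAP4-9 (ENSG00000212722), KRTAP4-7 (ENSG00000240871) and KRTAP4-8 (ENSG00000204880), are cysteine-rich proteins of the hair shaft encoded side by side in the type I keratin cluster on chromosome 17. A search for 6 motifs in the RefSeq promoters of 16 of the 21 genes, which run 250 bases before to 50 after the annotated start, found TATAAA on either strand in 9 of 16, against 11.5% of 35116 promoters. Stretches of 116 bases around that motif are shown for 4 genes of the cluster. Of the 21 genes, these had the highest level in treated A673 among those in the cluster that were called higher. The stretches are printed because they show how alike the KRTAP4 promoters are. All were read 5′ to 3′ on the strand of the gene from GRCh38.p14, and the capitals mark TATAAA.

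KRTAP4-9, chr17:41105210-41105325, plus strand: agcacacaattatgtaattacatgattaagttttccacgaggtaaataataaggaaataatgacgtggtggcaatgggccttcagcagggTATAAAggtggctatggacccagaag
KRTAP4-7, chr17:41084028-41084143, plus strand: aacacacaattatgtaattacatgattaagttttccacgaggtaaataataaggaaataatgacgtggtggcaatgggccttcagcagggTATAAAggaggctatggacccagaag
KRTAP4-8, chr17:41098147-41098262, minus strand: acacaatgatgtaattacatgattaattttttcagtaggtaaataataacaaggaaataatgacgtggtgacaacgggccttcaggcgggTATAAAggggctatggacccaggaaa
KRT34, chr17:41382312-41382427, minus strand: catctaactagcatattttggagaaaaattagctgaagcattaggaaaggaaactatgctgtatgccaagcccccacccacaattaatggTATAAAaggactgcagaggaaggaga

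The motif began at position -89, -32, -30 and -31 from the annotated start of KRTAP4-9, KRTAP4-7, KRTAP4-8 and KRT34. Compared base by base without gaps, the KRTAP4-9 and KRTAP4-7 stretches were identical at 114 of 116 positions (98.3%). KRTAP4-8 matched KRTAP4-9 at 60.3% of positions, and KRT34 matched KRTAP4-9 at 27.6%. Some runs of bases that KRTAP4-8 shares with KRTAP4-9 stand at shifted positions, so a comparison without gaps understates their likeness. No alignment with gaps was made. Of the other motifs, on both strands, TGANTCA (AP-1) was in 2 of the 16 promoters against 7.71% of all, CATTCC (TEAD) in 2 against 14.0%, GGAAGGA (an ETS core repeat) in 3 against 11.6%, CACGTG (E-box) in 0 against 7.26% and GGGNGGG (KLF or SP) in 6 against 54.1%. GGAAGGA and GGGNGGG can overlap in a G-rich run. These are matches of letters and say nothing of binding.

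Because the copies are alike, reads can be shared between them. In GENCODE 29, 29.9% of the 50-base stretches of the longest KRTAP4-9 transcript also occur in transcripts of other genes, 19.4% for KRTAP4-8 and 18.0% for KRTAP4-7. How the authors' counting treated such reads is not given in the sources used here, so the split between copies is uncertain and the family was also summed over its 11 genes. The KRTAP4 sum was 9.31 and 9.58 CPM with SP-2509 and 2.53 and 2.18 CPM with DMSO in the MRPL45 knockout line. It was 15.2 and 20.9 CPM with SP-2509 and 4.93 and 4.97 CPM with DMSO in the CYC1 knockout line. The UQCRFS1 knockout line had 26.8 and 24.0 CPM with SP-2509 and 0.612 and 0.501 CPM with DMSO. The treated libraries were above the untreated ones in all 3 lines, with no overlap.

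A673 had the highest treated level, 67.4 and 61.0 CPM, against 0.953 and 0.537 CPM with DMSO. The KRTAP4 sum rose by 1.99 ± 0.17 (log2 fold change with its SE, 2 libraries in each group), 1.87 ± 0.15 and 5.50 ± 0.20 in the MRPL45, CYC1 and UQCRFS1 knockout lines and by 6.40 ± 0.19 in A673, with edgeR adjusted p of 1.08e-06, 6.41e-08, 7.29e-13 and 5.5e-14. The response minus that of A673 was -4.41 ± 0.28 in the MRPL45 line and -4.53 ± 0.25 in the CYC1 line on the log2 scale, and both differences passed the test (edgeR adjusted p of 4.03e-09 and 1.52e-09). The difference of -0.89 ± 0.35 in the UQCRFS1 line did not (adjusted p = 0.128).

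KRTAP4-9 was the most abundant copy in A673. It stood at 3.17 and 3.84 CPM with SP-2509 and 1.13 and 0.891 with DMSO in the MRPL45 knockout line, and at 7.91 and 11.7 against 2.83 and 2.5 in the CYC1 knockout line. It stood at 16.3 and 15.1 CPM with SP-2509 and 0.355 and 0.26 with DMSO in the UQCRFS1 knockout line, and at 38.4 and 33.6 against 0.563 and 0.307 in A673. The groups did not overlap in any line, and the log2 fold changes were 1.78 ± 0.24, 1.88 ± 0.18, 5.65 ± 0.24 and 6.33 ± 0.23 in that order of lines, all called.

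KRTAP4-7 moved alongside it. Its level was 1.24 and 1.03 CPM with SP-2509 and 0.48 and 0.231 with DMSO in the MRPL45 knockout line, and 5.01 and 6.74 against 1.51 and 1.55 in the CYC1 knockout line. Its level was 5.25 and 4.54 CPM with SP-2509 and 0.118 and 0.18 with DMSO in the UQCRFS1 knockout line, and 17.9 and 16.4 against 0.303 and 0.179 in A673. It rose in all 4 lines, by 1.54 ± 0.29, 1.94 ± 0.19, 5.01 ± 0.27 and 6.11 ± 0.24, and by 2.26 in the MRPL45 line without DMSO replicate 1.

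KRTAP4-8 was nearly absent from untreated A673 and from the untreated UQCRFS1 line. It had 450 counts with SP-2509 and 1 with DMSO in the UQCRFS1 knockout line, a ratio of 456 (95% interval 81.5 to 18100), and 1043 against 3 counts in A673, a ratio of 293 (100 to 1420). Its level was 4.56 and 4.05 CPM with SP-2509 and 0.691 and 0.66 with DMSO in the MRPL45 knockout line, and 2 and 2.2 against 0.475 and 0.63 in the CYC1 knockout line, rises of 2.65 ± 0.20 and 1.92 ± 0.21. The 1 untreated count of the UQCRFS1 line decides the size there, and the fitted log2 value was 7.64 without DMSO replicate 1 and 10.71 without DMSO replicate 2. The make-up of the family differed between the lines. KRTAP4-8 held 44.5% of the KRTAP4 counts in the treated MRPL45 line (exact interval 40.9 to 48.2) and 16.1% in treated A673 (15.2 to 17), whereas KRTAP4-9 held 38.0% (34.5 to 41.6) and 56% (54.8 to 57.3). These shares carry no replicate test.

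The other keratin-associated proteins were scarcer. KRTAP2-3 (ENSG00000212724), another high-cysteine protein of the hair shaft, shares 39.7% of its 50-base stretches with other genes, most of them with KRTAP2-4. It stood at 1.66 and 1.62 CPM with SP-2509 and 0.384 and 0.495 with DMSO in the MRPL45 knockout line, and at 1.06 and 1.53 against 0.108 and 0.203 in the CYC1 knockout line. It rose there by 1.92 ± 0.32 and 3.05 ± 0.37 (edgeR adjusted p of 0.000168 and 1.05e-06). KRTAP2-3 had 51 counts with SP-2509 and 0 with DMSO in the UQCRFS1 line and 271 against 0 in A673, which is at least 17.2-fold and at least 76.2-fold higher against a floor of 3 counts over the group.

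KRTAP3-2 (ENSG00000212900), of another hair family, had 88 counts with SP-2509 and 0 with DMSO in A673, at least 24.7-fold higher. These were 88 of its 100 counts, so it met the count minimum only through treated A673 and had to differ there. It had 3 counts or fewer in every group of the 3 knockout lines, so no fold is given there. KRTAP4-12 had 8 counts in each of the treated A673 libraries and 0 in the untreated ones, at least 4.5-fold higher, and KRTAP4-11 had 20 counts against 1, a ratio of 16.9 (2.7 to 699). Both were called in A673 and in no other response.

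Among the hair keratins, KRT34 (ENSG00000131737), a type I keratin of the hair shaft, also rose in all 4 lines. It stood at 2.45 and 2.38 CPM with SP-2509 and 0.806 and 0.693 with DMSO in the MRPL45 knockout line, a rise of 1.66 ± 0.22 (edgeR adjusted p = 6.53e-06). It had 69 counts with SP-2509 and 2 with DMSO in the CYC1 line, a ratio of 32.4 (8.63 to 273), and 213 against 1 in the UQCRFS1 line, a ratio of 216 (38.3 to 8570). In A673 it reached 7.14 and 7.28 CPM with SP-2509, 729 counts, against 1 count with DMSO, a ratio of 615 (110 to 24300). Without DMSO replicate 1 and without DMSO replicate 2 the fitted log2 value was 9.62 and 6.59 in the UQCRFS1 line and 11.36 and 8.18 in A673. The level of treated A673 was the highest of the 8 groups, while the highest untreated level was that of the MRPL45 line.

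KRT81 (ENSG00000205426), a type II hair keratin, had nearly all of its 71 counts in the MRPL45 knockout line. It met the count minimum only through that line. It had 12 and 22 counts with SP-2509 and 22 and 14 with DMSO in the MRPL45 knockout line, or 0.452 and 0.429 CPM against 0.422 and 0.462. Over the 12 libraries of the other lines it had 1 count in all. Its log2 fold change with SP-2509 in the MRPL45 line was -0.0033 ± 0.49 (edgeR adjusted p = 0.999). The SE is wide, so this does not show that its level stayed the same. Reads of KRT81 and its neighbour KRT86 are hard to separate, as 38.4% of its 50-base stretches also occur in KRT86 and the 2 genes overlap on opposite strands. KRT32, which was not tested, had 1 count with SP-2509 and 13 with DMSO in the UQCRFS1 knockout line, a level 12.8-fold lower (1.93 to 545).

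KRT25 (ENSG00000204897), a type I keratin of the inner root sheath, went the other way. It stood at 0.102 and 0.0597 CPM with SP-2509 and 0.691 and 0.481 with DMSO in the UQCRFS1 knockout line, and at 0.0824 and 0.019 against 0.714 and 0.589 in A673. It fell by 2.82 ± 0.51 in the UQCRFS1 line and by 3.65 ± 0.55 in A673 (log2, edgeR adjusted p of 4.59e-05 and 4.46e-06). In the CYC1 knockout line it stood at 0.143 and 0.0839 CPM with SP-2509 and 0.173 and 0.158 with DMSO, a difference of -0.53 ± 0.59 that was not called. The MRPL45 knockout line had 0 counts with SP-2509 and 2 with DMSO.

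SPRR2D (ENSG00000163216), the only gene of the cornified envelope proper among the 21, was induced in all 4 lines. With SP-2509 it stood at 0.603 and 0.701 CPM in the MRPL45 knockout line, where DMSO left 1 count over both libraries, a ratio of 55 (9.45 to 2210). It stood at 2.24 and 2.6 CPM in the treated CYC1 knockout line, where DMSO left 2 counts, a ratio of 110 (30 to 912). The UQCRFS1 knockout line had 14.3 and 13.7 CPM with SP-2509 and 0.0197 and 0.0801 with DMSO. It stood at 15.3 and 14.6 CPM with SP-2509 and 0.238 and 0.0512 with DMSO in A673.

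SPRR2D rose by 8.06 ± 0.33 in the UQCRFS1 line and 6.60 ± 0.29 in A673 (edgeR adjusted p of 4.29e-15 and 1.07e-14). The few untreated counts decide the size of these changes. Without DMSO replicate 1 and without DMSO replicate 2, the log2 fold change was 9.79 and 5.72 in the CYC1 line, 7.40 and 9.30 in the UQCRFS1 line and 8.08 and 5.93 in A673. None of the 3 differences of response was called for SPRR2D, while the treated level was 0.652 CPM in the MRPL45 line, 2.42 in the CYC1 line, 14.0 in the UQCRFS1 line and 15.0 in A673 (means of 2 libraries). Of its 50-base stretches 26.8% also occur in other SPRR2 genes, and the sum of SPRR2D with SPRR2A gave 8.07 ± 0.33 and 6.61 ± 0.29.

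**Figure D3:**
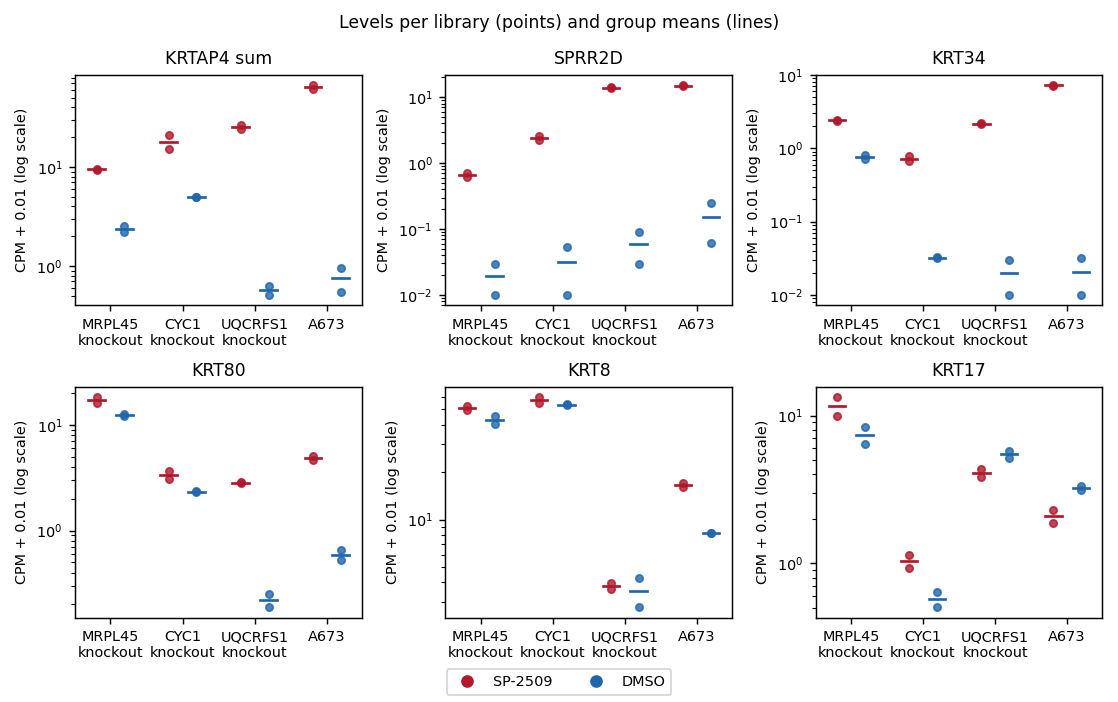
CPM + 0.01 on a log axis for the KRTAP4 sum and 5 genes in the 4 lines, 1 point per library and a line for the group mean, SP-2509 in red left of DMSO in blue. SPRR2D is above its DMSO level in every line, while KRT8 and KRT80 are set mainly by the line in the MRPL45 and CYC1 knockouts, and KRT17 is higher with SP-2509 in those 2 lines and lower in the other two.

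Of the simple-epithelial pair, KRT8 was called in A673 and KRT18 in no line, and their separate calls do not show that the genes responded differently. KRT18 (ENSG00000111057), the type I partner, was the most abundant of the 21 in raw counts, at 48.6 to 171 CPM over the 16 libraries, and was called in none of the 4 responses. It stood at 131 and 171 CPM with SP-2509 and 105 and 144 with DMSO in the MRPL45 line, at 101 and 131 against 114 and 137 in the CYC1 line, at 48.6 and 59.1 against 70.3 and 90.2 in the UQCRFS1 line, and at 67.2 and 92 against 69.5 and 95.9 in A673. Its treated and untreated libraries overlapped in every line but the UQCRFS1 line, where the log2 fold change was -0.58 ± 0.27 (adjusted p = 0.111). KRT18 was higher in replicate 2 than in replicate 1 in 8 of 8 groups, so the overlap does not show that its level stayed the same.

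KRT8 (ENSG00000170421), the type II partner, stood at 17.1 and 16 CPM with SP-2509 and 8.2 and 8.16 with DMSO in A673, a rise of 1.02 ± 0.11 (edgeR adjusted p = 9.93e-08). In the MRPL45 knockout line it stood at 49.3 and 52.4 CPM against 40.3 and 45.6, in the CYC1 knockout line at 55.1 and 59.5 against 53.5 and 53.6, and in the UQCRFS1 knockout line at 3.94 and 3.6 against 2.78 and 4.23. None of these 3 was called (0.25 ± 0.10, 0.10 ± 0.09 and 0.11 ± 0.14), but DESeq2 called the MRPL45 line (adjusted p = 0.0461). In the UQCRFS1 line the value was 0.45 and called without DMSO replicate 2, and -0.16 without DMSO replicate 1. The 2 genes overlap on opposite strands in GENCODE 29 and the strand of the libraries is not given in the sources used here, so reads of the overlap cannot be told apart. The response of KRT8 minus that of A673 was -0.77 ± 0.15, -0.92 ± 0.14 and -0.91 ± 0.18 on the log2 scale in the MRPL45, CYC1 and UQCRFS1 lines, and all 3 differences were called (edgeR adjusted p of 0.000252, 4.49e-05 and 0.00189).

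KRT20 (ENSG00000171431), a type I keratin of intestinal and urothelial cells, stood at 0.47 and 0.458 CPM with SP-2509 and 0.079 and 0.1 with DMSO in the UQCRFS1 knockout line and at 0.618 and 0.571 against 0.0216 and 0.102 in A673. It rose by 2.34 ± 0.53 and 3.28 ± 0.58. It was also called in the CYC1 line (1.65 ± 0.62, edgeR adjusted p = 0.0421) but not in the MRPL45 line, where it stood at 0.452 and 0.682 CPM with SP-2509 and 0.883 and 0.396 with DMSO. Its treated levels in A673 lay inside the range of the untreated MRPL45 libraries.

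Keratins of the stratified epidermis gave mixed results. KRT10 (ENSG00000186395), of the upper epidermis, stood at 12.1 to 27.2 CPM over all libraries and was called in no response, with log2 fold changes of 0.13 ± 0.29, 0.04 ± 0.27 and -0.33 ± 0.27 in the MRPL45, CYC1 and UQCRFS1 lines and 0.24 ± 0.27 in A673. It overlaps TMEM99 on the opposite strand, a gene that was called higher in all 4 responses. KRT9, of the palms and soles, reached at most 0.49 CPM and was called nowhere.

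KRT17 (ENSG00000128422), a keratin of hair follicles and of stressed epidermis, changed in opposite directions. It stood at 13.3 and 10 CPM with SP-2509 and 8.4 and 6.37 with DMSO in the MRPL45 line and at 1.12 and 0.923 against 0.627 and 0.495 in the CYC1 line. In the UQCRFS1 line it stood at 4.33 and 3.86 CPM with SP-2509 and 5.73 and 5.19 with DMSO, and in A673 at 2.29 and 1.85 against 3.12 and 3.35. It rose by 0.64 ± 0.16 and 0.86 ± 0.25 in the MRPL45 and CYC1 lines and fell by 0.41 ± 0.16 and 0.65 ± 0.18 in the UQCRFS1 line and A673 (edgeR adjusted p of 0.00496, 0.00795, 0.0327 and 0.00326).

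The KRT17 calls outside A673 were not kept in every fit that left out 1 library, while the direction stayed. Such a fit leaves 1 library in a group. The MRPL45 call was lost without SP-2509 replicate 1 (0.44, adjusted p = 0.116) and without DMSO replicate 2 (0.49, 0.0761), and the CYC1 call without SP-2509 replicate 1 (0.73, 0.0827) and without DMSO replicate 2 (0.70, 0.102). The UQCRFS1 call was lost without SP-2509 replicate 1 (-0.49, 0.0524), SP-2509 replicate 2 (-0.33, 0.197) or DMSO replicate 1 (-0.34, 0.175) and with DESeq2 (-0.42, 0.0758). The difference from A673 was called in the MRPL45 line (1.28 ± 0.24, edgeR adjusted p = 0.000103) and the CYC1 line (1.51 ± 0.30, 0.00036), and not in the UQCRFS1 line (0.23 ± 0.24, 0.634).

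KRT80 (ENSG00000167767), a type II keratin found in many epithelia, rose in all 4 lines. It stood at 16 and 18.3 CPM with SP-2509 and 12.2 and 12.7 with DMSO in the MRPL45 line, and at 3.1 and 3.67 against 2.29 and 2.36 in the CYC1 line. It stood at 2.86 and 2.81 CPM with SP-2509 and 0.178 and 0.24 with DMSO in the UQCRFS1 line, and at 4.69 and 5.11 against 0.52 and 0.64 in A673. The log2 fold changes were 0.46 ± 0.12, 0.54 ± 0.14, 3.74 ± 0.20 and 3.08 ± 0.17 (edgeR adjusted p of 0.00606, 0.00351, 8.96e-14 and 6.97e-14). The MRPL45 call was lost without SP-2509 replicate 2 (0.37, 0.13) and without DMSO replicate 1 (0.44, 0.056), and the CYC1 call without SP-2509 replicate 2 (0.39, 0.109). Its response minus that of A673 was -2.62 ± 0.21 in the MRPL45 line and -2.54 ± 0.22 in the CYC1 line (edgeR adjusted p of 4.17e-10 and 3.86e-09).

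KRTAP5-AS1 (ENSG00000233930) is an RNA transcribed opposite KRTAP5 genes and codes for no keratin-associated protein. It was called higher in the CYC1 line (17 counts with SP-2509 and 3 with DMSO, a ratio of 5.32, 1.54 to 28.3) and in the UQCRFS1 line (34 and 10 counts, 1.76 ± 0.57, edgeR adjusted p = 0.0107). It also overlaps DUSP8 on the opposite strand, which rose by 3.46 in A673, and reads of the 2 cannot be told apart without strand.

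Over all 19 genes, the response of the MRPL45 knockout line differed from that of A673 for 1 gene upward and 9 downward, where 14.5% and 24.2% of all tested genes did. For the CYC1 knockout line the counts were 2 upward and 8 downward, against 12.8% and 21%. For the UQCRFS1 knockout line they were 0 upward and 1 downward (KRT8), against 3.02% and 7.68%. At an unadjusted p under 0.05, 1 and 2 genes differed upward and downward there, and DESeq2 called 0 and 1. The 3 differences share the A673 libraries, and KRTAP3-2, 1 of the 9 in the MRPL45 line, met the count minimum only through treated A673. With upper-quartile scaling the share of positive differences among all called genes moved to 52.9%, 57% and 40.2% in the MRPL45, CYC1 and UQCRFS1 lines, against 37.5%, 37.8% and 28.3%, while the 19 genes gave 1 upward and 9 downward, 2 and 7, and 0 and 1.

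How the knockout lines differed from A673 before treatment was the second question. With DMSO, the MRPL45 knockout line had 10 of the 19 genes higher and 2 lower than A673, where 28.9% and 29% of all tested genes were. The CYC1 knockout line had 7 higher and 3 lower, against 21.4% and 16.2%. The UQCRFS1 knockout line had 1 higher and 2 lower, against 15.8% and 15.0%. These 3 comparisons share the untreated A673 libraries. With upper-quartile scaling the share of higher calls among all genes moved to 43.4% in the CYC1 line, against 56.9%, with the same 7 and 3 calls among the 19.

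**Figure D4:**
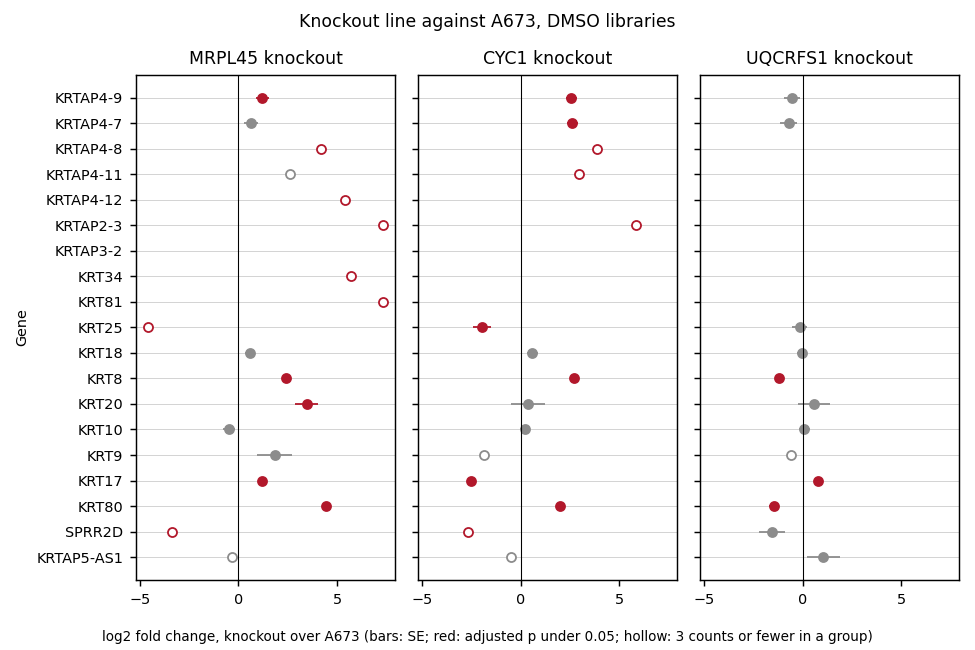
Log2 fold change of each knockout line over A673, both with DMSO, for the 19 tested genes, with bars for the standard error and red for adjusted p under 0.05. Hollow points have a group with 3 counts or fewer, and a gene with 3 counts or fewer in both groups has no point. KRT8 and KRT80 are higher in the MRPL45 and CYC1 lines and lower in the UQCRFS1 line.

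KRT8 and KRT80 were set apart by line. KRT8 stood at 40.3 and 45.6 CPM in the untreated MRPL45 line, 53.5 and 53.6 in the CYC1 line and 2.78 and 4.23 in the UQCRFS1 line, against 8.2 and 8.16 in A673. The log2 fold changes against A673 were 2.39 ± 0.11, 2.71 ± 0.11 and -1.22 ± 0.13 (edgeR adjusted p of 1.46e-13, 7.64e-14 and 4.2e-07). KRT80 stood at 12.2 and 12.7, 2.29 and 2.36, and 0.178 and 0.24 CPM in the 3 knockout lines, against 0.52 and 0.64 in A673, with log2 fold changes of 4.43 ± 0.16, 2.01 ± 0.18 and -1.45 ± 0.27. KRT18 was called in none of the 3 lines, at 0.58 ± 0.27, 0.60 ± 0.27 and -0.04 ± 0.27, and KRT10 in none either. Untreated KRT18 stood at 105 and 144 CPM in the MRPL45 line and 114 and 137 in the CYC1 line, against 69.5 and 95.9 in A673. Neither line overlapped A673. KRT18 was higher in replicate 2 in 8 of 8 groups, so a missing call does not show an equal level. The KRT18 calls depended on the processing, as given below.

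KRT17 was higher than in A673 in the MRPL45 line (log2 fold change 1.203 ± 0.166) and the UQCRFS1 line (0.76 ± 0.17), and lower in the CYC1 line (-2.52 ± 0.22), with edgeR adjusted p of 9.16e-07, 0.001 and 1.23e-09. The libraries of each of these lines lay apart from those of A673.

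Several genes that rose with SP-2509 were already higher than in A673 in untreated cells of the MRPL45 and CYC1 lines. Without treatment the KRTAP4 sum was 1.65 ± 0.25 higher in the MRPL45 line and 2.70 ± 0.22 higher in the CYC1 line than in A673 (edgeR adjusted p of 2.96e-05 and 7.13e-08), and stood at -0.45 ± 0.32 in the UQCRFS1 line (0.339). KRTAP4-9 alone was 1.22 ± 0.33 and 2.58 ± 0.28 higher, and the MRPL45 call was lost without its DMSO replicate 1 (0.99, 0.0958) or A673 DMSO replicate 2 (0.85, 0.0639). KRTAP4-7 was 2.63 ± 0.29 higher in the CYC1 line. KRT34 had 63 counts in the untreated MRPL45 line against 1 in A673, a ratio of 65.2 (11.3 to 2610), and KRTAP2-3 had 35 against 0, at least 12.1-fold higher. In the CYC1 line KRTAP2-3 had 14 counts against 0, at least 4.39-fold higher.

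Other genes were called higher in the untreated MRPL45 line. KRT81 had 36 counts in the untreated MRPL45 line and 0 in A673, at least 12.4-fold higher, and 0 in the untreated CYC1 and UQCRFS1 lines. As KRT81 met the count minimum only through the MRPL45 line, it had to differ there, and its call describes that choice. KRT20 had 58 counts in the untreated MRPL45 line against 5 in A673 (3.46 ± 0.58, edgeR adjusted p = 1.31e-05).

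SPRR2D, which rose with SP-2509, was called lower than in A673 in untreated cells of the MRPL45 and CYC1 lines. It had 1, 2 and 5 counts in the untreated MRPL45, CYC1 and UQCRFS1 lines against 13 in A673. That is 12.6-fold lower (1.89 to 534) in the MRPL45 line and 6.92-fold lower (1.57 to 63.1) in the CYC1 line, both called, and a log2 fold change of -1.56 ± 0.67 in the UQCRFS1 line that was not. Most of the A673 counts came from replicate 1, at 0.238 CPM against 0.0512 in replicate 2. The untreated libraries had 0.0192 and 0 CPM in the MRPL45 line and 0.0432 and 0 in the CYC1 line. Those of the UQCRFS1 line had 0.0197 and 0.0801 CPM and overlapped those of A673. KRT25, which fell with SP-2509 in A673, was also lower in the untreated MRPL45 and CYC1 lines. It had 2 and 15 counts in the untreated MRPL45 and CYC1 lines against 56 in A673, 27.1-fold lower (7.15 to 229) in the first and a log2 fold change of -1.97 ± 0.46 in the second.

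Most of the 21 genes sit in known gene clusters. In GENCODE 29 order, the type I keratin and KRTAP cluster on chromosome 17 held 39 genes of the tables, 15 of them among the 21. The 1 other gene there that was tested is TMEM99, which lies opposite KRT10 and rose in all 4 responses, by 0.78 ± 0.11, 0.91 ± 0.11 and 1.26 ± 0.11 in the MRPL45, CYC1 and UQCRFS1 lines and 1.199 ± 0.106 in A673. The changes were not uniform along the cluster. KRT25 at one end and KRT17 at the other fell in A673, KRT10 was not called, and KRT20, the 7 KRTAP genes and KRT34 between them rose. KRT19, KRT15 and KRT14 lie between KRT34 and KRT17 and stayed at 22, 15 and 11 counts over all libraries.

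**Figure D5:**
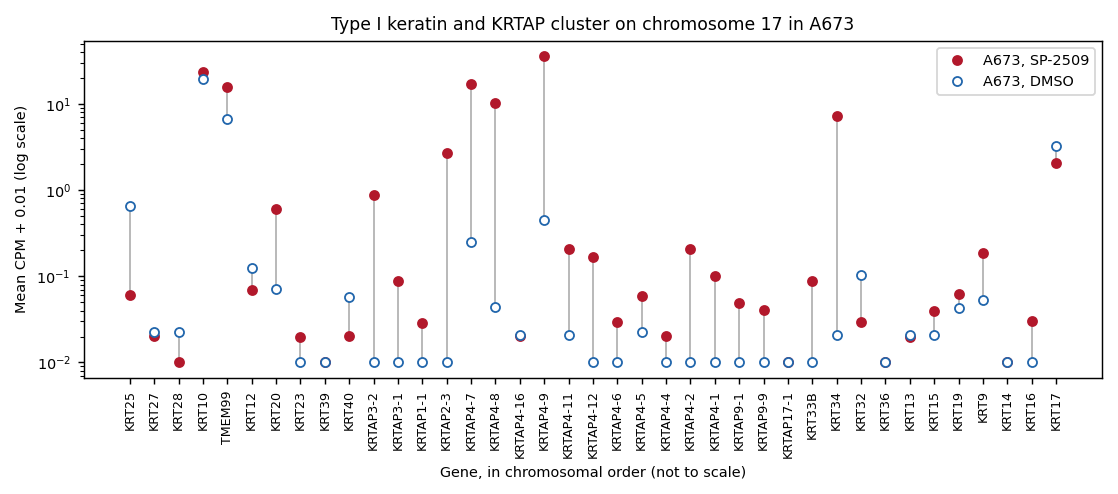
Mean CPM + 0.01 on a log axis in A673 for the 39 genes of the type I keratin and KRTAP cluster in chromosomal order, SP-2509 in filled red and DMSO in open blue. The red points lie far above the blue at KRTAP3-2, KRTAP2-3, KRTAP4-7, KRTAP4-8, KRTAP4-9 and KRT34, and below them at KRT25 and KRT17.

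SPRR2D lies in the epidermal differentiation complex on chromosome 1, where 14 other genes of the S100, filaggrin-like and related families were tested. With SP-2509, 6 of the 14 were called higher and 1 lower in A673, 1 and 0 in the MRPL45 line, 4 and 1 in the CYC1 line and 3 and 5 in the UQCRFS1 line. Of all tested genes, 31.6% and 26.4% were called higher and lower in A673, 10.4% and 8.09% in the MRPL45 line, 18.7% and 14.7% in the CYC1 line and 29.6% and 25.1% in the UQCRFS1 line, so the counts of the last line lie near the share of all genes. In the untreated MRPL45 line 11 of the 14 were higher than in A673, where 28.9% of all tested genes were, among them FLG, filaggrin (5.43 ± 0.40), HRNR, hornerin (4.81 ± 0.25), and S100A6 (4.95 ± 0.13), while SPRR2D was lower there. The type II cluster on chromosome 12 held 18 genes of the tables, and KRT80, KRT81, KRT8 and KRT18 were those among the 21. KRTAP10 and KRTAP12 genes, none of them among the 21, overlap TSPEAR, a gene of hair and inner ear. Their family sums fell in A673 by 1.87 ± 0.38 and 1.97 ± 0.60 on the log2 scale, and in the UQCRFS1 line by 1.85 ± 0.43 and 2.30 ± 0.72 (edgeR adjusted p of 0.000168, 0.00732, 0.000669 and 0.00903). TSPEAR itself, with 2506 counts against 246 and 109 for the 2 families, fell by 1.78 in A673 (1.61e-10), and its reads and theirs cannot be told apart.

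Other genes of keratinized tissue were read from lists chosen by function. Of 18 tested genes of the cornified envelope beside the SPRR family, 3 were called higher in the MRPL45 line, 8 in the CYC1 line, 7 in the UQCRFS1 line and 12 in A673, and 5 were lower in the UQCRFS1 line. DESeq2 called 5 higher and 1 lower in the UQCRFS1 line. Of all tested genes 10.4%, 18.7%, 29.6% and 31.6% were called higher in that order of lines, and 25.1% lower in the UQCRFS1 line. The median log2 fold change of the list was 0.098, 0.68, 0.57 and 1.26, where that of all genes lay between -0.03 and 0.02. Calls of lower genes numbered 0 in the other 3 lines with edgeR and DESeq2, and 1, 0 and 0 at an unadjusted p under 0.05 in the MRPL45 line, the CYC1 line and A673. TCHH, trichohyalin of the inner root sheath and hair, rose by 2.28 ± 0.51 in the CYC1 line, 2.91 ± 0.35 in the UQCRFS1 line and 3.89 ± 0.33 in A673, and stood at 0.86 ± 0.36 in the MRPL45 line, which was not called. ANXA1, an annexin, rose in all 4 lines, by 0.28 ± 0.08, 0.78 ± 0.08, 1.28 ± 0.08 and 1.34 ± 0.08 in the MRPL45, CYC1 and UQCRFS1 lines and A673. CSTA, the protease inhibitor cystatin A, rose by 0.78 ± 0.27, 3.14 ± 0.22, 0.84 ± 0.20 and 2.28 ± 0.23 in the same order. The list also differed before treatment. With DMSO, 13 of the 18 were called higher and 0 lower than A673 in the MRPL45 line, and DESeq2 called 12 and 0. The edgeR counts were 4 and 4 in the CYC1 line and 4 and 3 in the UQCRFS1 line. Of all tested genes, 28.9%, 21.4% and 15.8% were called higher. The list medians against A673 were 2.06, 0.023 and 0.23, and the first lies above the list median of every response.

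Of 16 tested genes of desmosomes and hemidesmosomes, the junctions to which keratin filaments attach, 6 rose and 1 fell in the MRPL45 line, 6 and 3 in the CYC1 line, 7 and 3 in the UQCRFS1 line and 8 and 3 in A673. Over all tested genes the shares were 10.4% and 8.09%, 18.7% and 14.7%, 29.6% and 25.1%, and 31.6% and 26.4%, and the list medians were 0.22, 0.31, -0.0035 and 0.57. PKP2, a plakophilin of the desmosomal plaque, rose by 0.34 ± 0.06, 0.53 ± 0.06, 1.17 ± 0.06 and 2.24 ± 0.07 in that order of lines, and LAMB3, a laminin chain, by 0.77 ± 0.08, 1.26 ± 0.09, 2.21 ± 0.09 and 2.02 ± 0.09. ITGA6, an integrin of hemidesmosomes, fell by 1.60 ± 0.12 in the UQCRFS1 line. Before treatment the list already differed between the lines. With DMSO, 11 of the 16 were called higher and 1 lower than A673 in the MRPL45 line. The counts were 4 and 2 in the CYC1 line and 3 and 4 in the UQCRFS1 line. Of all tested genes, 28.9%, 21.4% and 15.8% were called higher, and the list medians against A673 were 1.23, -0.071 and -0.0034. Untreated PKP2 stood at 59.4, 54.4 and 14.8 CPM in the MRPL45, CYC1 and UQCRFS1 lines and at 4.48 in A673 (group means). Treated A673 had 21.2 CPM.

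Of 25 tested regulators of epidermis and hair, 10 rose in the MRPL45 line, 11 in the CYC1 line, 15 in the UQCRFS1 line and 17 in A673, where 10.4%, 18.7%, 29.6% and 31.6% of all tested genes rose. The list medians were 0.35, 0.40, 0.65 and 1.04. Lower calls numbered 0, 0, 1 and 2, with the same 0, 0, 1 and 2 at an unadjusted p under 0.05, and DESeq2 called 0, 0, 1 and 1. KLF5, a zinc finger factor of epithelia, rose by 1.09 ± 0.08, 2.22 ± 0.10, 3.07 ± 0.09 and 4.26 ± 0.09 in the MRPL45, CYC1 and UQCRFS1 lines and A673. KLF4, which acts in the epidermal barrier, rose by 1.12 ± 0.21, 0.99 ± 0.28, 4.12 ± 0.26 and 3.68 ± 0.24. TP63, the main regulator of stratified epithelium, rose in all 4, by 0.59 ± 0.12, 1.18 ± 0.14, 1.24 ± 0.13 and 1.75 ± 0.13. Before treatment, 16 of the 25 were called higher and 4 lower than A673 in the MRPL45 line. The counts were 13 and 3 in the CYC1 line and 2 and 6 in the UQCRFS1 line. Of all tested genes, 28.9%, 21.4% and 15.8% were called higher, and the list medians against A673 were 1.09, 0.51 and -0.061.

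Of 16 tested genes of other intermediate filaments and their partners, 6 rose and 5 fell in A673, near the 31.6% and 26.4% of all tested genes, with a median of 0.11. NES, the progenitor filament protein nestin, fell by 0.60 ± 0.09, 1.22 ± 0.09, 2.90 ± 0.11 and 2.49 ± 0.10 in the MRPL45, CYC1 and UQCRFS1 lines and A673, and INA, the neuronal filament protein alpha-internexin, rose by 0.93 ± 0.07, 1.88 ± 0.08, 1.87 ± 0.07 and 1.92 ± 0.07.

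Markers of epithelial cells gave mixed calls. Of 10 tested, 2 were called higher and 0 lower in the MRPL45 line, 3 and 0 in the CYC1 line, and 3 and 2 in both the UQCRFS1 line and A673, and 0 were lower in the first 2 lines by DESeq2 and at an unadjusted p under 0.05. Of all tested genes, 10.4% and 8.09% were called higher and lower in the MRPL45 line and 18.7% and 14.7% in the CYC1 line. The shares were 29.6% and 25.1% in the UQCRFS1 line and 31.6% and 26.4% in A673, and the marker counts of these 2 lie near them. The list medians were 0.077 and 0.23 in the MRPL45 and CYC1 lines and -0.43 and -0.16 in the UQCRFS1 line and A673. CLDN1 and TP63 were called higher in all 4 lines, ESRP2 and CDH3 lower in A673, and CLDN4 and CDH3 lower in the UQCRFS1 line. Of 16 listed, 15 were in the tables, and their summed level was 644 to 645 CPM with SP-2509 and 463 to 472 with DMSO in the MRPL45 line, 369 to 398 against 187 to 189 in the CYC1 line, 1280 to 1360 against 428 to 442 in the UQCRFS1 line, and 1090 to 1100 against 308 to 332 in A673. CLDN1, a tight-junction claudin, made up nearly all of it, and the other 14 summed to 15.6 to 17.2 CPM against 12.3 to 12.7, 6.72 to 7.66 against 4.45 to 4.48, 8.41 to 9.28 against 5.52 to 5.86, and 11 CPM against 5.53 to 5.69. Within these 14, TP63 stood at 6.12 and 6.45 CPM with SP-2509 and 2.76 and 2.54 with DMSO in the UQCRFS1 line, and at 8.21 and 8.32 against 2.4 and 2.51 in A673. Of the defining markers, KRT5 was at 0 in both groups of A673 and of the UQCRFS1 line, KRT14 was at 0 in both groups of A673, CDH1, DSG3 and EPCAM reached at most 0.24 CPM in the libraries of those 2 lines, and DSG3 was at 0 in the MRPL45 and CYC1 lines. In the MRPL45 line KRT5 reached 0.099 CPM, KRT14 0.113, CDH1 0.195, EPCAM 0.377 and CLDN4 1.77 in the highest library. In the CYC1 line they reached 0.0225, 0.0225, 0.0432, 0.245 and 0.41 CPM at most. Before treatment, 5 of the 10 were called higher and 1 lower than A673 in the MRPL45 line (list median 1.03). DESeq2 called 4 and 0. The edgeR counts were 1 and 2 in the CYC1 line and 1 and 1 in the UQCRFS1 line. The part of these markers in the results above was not tested.

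Of 9 hair-follicle markers 6 were in the tables and 4 were tested, with 1, 3 and 3 called higher in the MRPL45, CYC1 and UQCRFS1 lines and 3 in A673, where 10.4%, 18.7%, 29.6% and 31.6% of all tested genes were. DESeq2 called 0 higher in the MRPL45 line. Lower calls numbered 0 by edgeR, by DESeq2 and at an unadjusted p under 0.05. FOXN1, a regulator of hair keratins, and the hair keratin KRT85 stayed at or near 0. HOXC13, another such regulator, stood at 17.4 to 17.5 CPM with SP-2509 and 15.1 to 16.2 with DMSO in A673. It was not called there (0.16 ± 0.07) but was called higher in the UQCRFS1 line (0.32 ± 0.07, edgeR adjusted p = 0.000558). The 3 called in A673 were TCHH (3.89 ± 0.33), MSX2 (1.76 ± 0.30) and LEF1 (1.04 ± 0.11). The 8 fibroblast markers summed to 1510 to 1580 CPM with SP-2509 and 1390 to 1550 with DMSO in the MRPL45 line, to 549 to 558 against 836 to 872 in the CYC1 line, to 353 to 360 CPM with SP-2509 and 951 to 1050 with DMSO in the UQCRFS1 line and to 503 to 505 against 807 to 976 in A673. Of the 8, 0 were called higher and 2 lower in the MRPL45 line, where DESeq2 called 2 and 2. The counts were 1 and 4 in the CYC1 line, 1 and 5 in the UQCRFS1 line and 2 and 5 in A673. Of all tested genes 8.09%, 14.7%, 25.1% and 26.4% were called lower. COL1A1 and COL1A2 made up most of the A673 sum. COL1A2 stood at 106 and 114 CPM with SP-2509 there and 415 and 530 with DMSO, and COL1A1 at 278 and 287 against 210 and 253. The part of these markers in the results was not tested.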

How the data were processed

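Poly(A) RNA of 16 libraries was analysed from the raw counts that the authors deposited as whole numbers in 10 tables, per the file headers; 24 columns repeated between tables were identical. The tools named in the submitters' processing notes are STAR 2.5.2b, Trim Galore, DESeq2, FastQC and MultiQC, with build hg19. The sources used here do not give the counting program, annotation or strand. Rows without a symbol held 2.405% to 8.588% of a library's counts and stayed in the fit. No replicate pair agreed within sampling noise (chi-square per degree of freedom at least 23.19).

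All 16 libraries entered 1 edgeR 4.0.16 quasi-likelihood fit (R 4.3.3) with a mean per group, TMM scaling and filterByExpr. It tested 21633 genes with 8 residual degrees of freedom (coefficient of variation 0.0716). P-values are two-sided and Benjamini-Hochberg adjusted over all genes; SE is the absolute log2 fold change over the square root of F. The fit was tested on simulated data. DESeq2 1.42.0, other scalings and filters and leaving out each library were alternatives. Groups with 0 counts got a bound from 3 counts over the group, those with 1 to 3 an exact 95% interval. Exon lengths, overlaps and order are from GENCODE 29, promoters from RefSeq (GRCh38.p14), neither on the build of the counts.

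Members, lists and tests were chosen with earlier results of these data known. KRT8, KRT18, KRT10, KRT19, KRT80 and KRT81 were always named. Further members were named by fold change among calls that reach 1 CPM without overlap of the libraries (8 higher and 4 lower per response, 4 and 4 per line, 3 and 3 per difference), list genes by the 4 smallest p-values per response. KRT9, KRT20, KRT32, KRTAP4-11, KRTAP5-AS1, FLG, HRNR, S100A6, members and list genes in comparisons where this rule did not take them, the summed KRTAP families and the marker genes were named outside that rule, with their values seen.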

Additional observations from a re-analysis of the deposited data

Results flagged for a closer look

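Differences of the response to SP-2509 that passed the test between a knockout line and A673 are given here for a closer look, as knockout minus A673 on the log2 scale. KRT17 differed by 1.28 in the MRPL45 knockout line and by 1.51 in the CYC1 knockout line, where it was higher with SP-2509 and in A673 lower. KRT8 differed by -0.91 in the UQCRFS1 knockout line. KRT25 differed by 3.12 in the CYC1 knockout line, and this call was lost without CYC1 knockout SP-2509 replicate 1 (2.71, adjusted p = 0.0787). The KRT25 value was 4.40 without A673 SP-2509 replicate 1 and 2.43 without replicate 2.

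Other differences rest on groups with 3 counts or fewer, so the fitted size depends on the prior count and only the call and the direction are read. In the MRPL45 knockout line these were KRT34 (-7.3), KRTAP2-3 (-8.02) and KRTAP3-2 (-8.23). For KRTAP3-2 the call and direction are not read as a result. It had 88 of its 100 counts in treated A673 and met the count minimum only through that group. In the CYC1 knockout line they were KRTAP4-8 (-6.17), KRTAP2-3 (-6.9) and KRTAP4-12 (-7.34). The MRPL45 value of KRT34 was -9.69 without A673 DMSO replicate 1 and -6.51 without A673 DMSO replicate 2.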

How the results depend on the processing

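Counts of called genes among the 19 stayed within 1.5 times of those reported under the other scalings, DESeq2, no filter and a stricter filter, with these exceptions. In A673 the stricter filter left 9 calls in place of 14, since it tests fewer genes. For the difference between the UQCRFS1 knockout line and A673, leaving out 1 library gave 1 to 2 calls in place of 1. Among the gene lists, where DESeq2 was the alternative run, it called 5 genes of the cornified envelope higher and 1 lower in the UQCRFS1 response in place of 7 and 5, and 0 hair-follicle markers in the MRPL45 response in place of 1. The replicate numbers were not taken as pairs, since only 2 numbers exist and no label says what they share. Libraries of the same number deviated together, with correlations of 0.091 to 0.657 (median 0.498) over 28 pairs of groups, and KRT18 was higher in replicate 2 in 8 of 8 groups. With the replicate block that difference had 2 calls, and KRT18 was called in the MRPL45 (0.29) and UQCRFS1 (-0.57) responses and in the untreated MRPL45 (0.59) and CYC1 (0.61) lines against A673. KRT8 in the MRPL45 response was called with the replicate block (0.25), without filter (0.26), with DESeq2 (0.26) and without DMSO replicate 2 (0.36).

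Signs turned only for uncalled values. Over fits that left out 1 library, KRT18 ranged over -0.33 to 0.17 and KRT10 over -0.049 to 0.42 in the A673 response, KRT10 over -0.14 to 0.42 in the MRPL45 response, KRT18 over -0.34 to 0.072 and KRT10 over -0.043 to 0.092 in the CYC1 response, and KRT18 over -0.27 to 0.21 and KRT10 over -0.18 to 0.29 in the untreated UQCRFS1 line against A673. KRT8 in the UQCRFS1 response ranged over -0.16 to 0.45, called without DMSO replicate 2, and was -0.029 with upper-quartile factors. The causes were not tested. Groups with few counts give wide intervals at this depth.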
